A study of Danio rerio with 5 samples.

Results

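The genes examined here are those of the thyroid axis, from the pituitary hormone that stimulates the gland to the receptors and enzymes through which thyroid hormone acts in tissues. They were chosen by name, and the 9 of 10 reported here are tshba, cga, tg, thraa, thrab, thrb, dio1, dio2 and dio3b. All 9 were found among the 21854 genes of the expression table by an exact match of the symbol. Expression was measured by sequencing of poly(A) RNA from zebrafish larvae at 2 weeks, in 5 libraries that each came from a pool of 10 larvae. The libraries labelled WT (wild type, n = 2) were compared with those labelled Mutant (n = 3), which are homozygous for zbtb24mk22, a deletion allele of the zinc finger gene zbtb24. The labels name no treatment, and the study's wild-type strain was AB. The design text describes whole larvae while the source label reads fin, and transcripts of eye, liver, pituitary and thyroid were present in every library. The libraries labelled WT are told apart by the numbers of their columns, 2 and 3, and values are given in the order of columns 2 and 3 and of Mutant replicates 1, 2 and 3. Labels do not say whether the pools came from separate clutches, so p-values measure the spread between these libraries only.

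Thyrotropes of the pituitary release thyroid stimulating hormone, a dimer of a specific beta subunit and an alpha subunit that is shared with the gonadotropins. The hormone acts on thyroid follicles, where thyroglobulin is iodinated and thyroxine is released. In peripheral tissues deiodinases convert thyroxine to the more active triiodothyronine or degrade both hormones, and nuclear receptors bound by triiodothyronine regulate transcription. In zebrafish, as in amphibians, thyroid hormone drives the change from larva to juvenile, including changes in fins, pigment pattern and skeleton.

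Values are scaled counts, the read count of a gene divided by a size factor of its library. Between 23796792 and 28601962 reads of a library were assigned to genes. The scaled counts of a library summed to 24622895 and 25190715 under the WT label and to 26430176, 26374301 and 26419530 under the Mutant label. These totals did not overlap, so settings that make totals equal lower the values under the Mutant label relative to WT. A test used limma on log2(scaled count + 1), which understates changes of low genes, and a gene was called at a Benjamini-Hochberg adjusted p under 0.05. As a check of the labels, zbtb24 itself was examined. Its scaled counts were higher in all libraries labelled Mutant (155, 175 and 282) than in those labelled WT (127 and 77.3). By qRT-PCR, the study found no detectable zbtb24 transcript in homozygotes. The log2 difference was 0.98 (SE 0.28, limma adjusted p = 0.0642), and 0.63 without the WT library of column 3. The summed reads of a gene do not show whether the transcripts carry the deletion. The level of zbtb24 thus gave no support to the labels, and every direction given here is for libraries as labelled.

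None of the thyroid axis genes was called. A mean scaled count of at least 10 was required for the test, which 8 of the 9 genes passed, and limma called 0 of them higher and 0 lower, where 6.00% of all 20307 genes tested were called. An unadjusted p under 0.05 was reached by 2 of the 8, dio3b and dio1, against 26.7% of all genes. These were also the 2 genes whose values did not overlap between the groups, which held for 44.9% of all genes. The differences were below zero for 7 genes and above zero for 1, where 50.2% of all genes were below zero. The median of the 8 was -0.15 on the log2 scale, against 0.00 (-0.0014) over all genes tested. In absolute size their median was 0.21, as it was for all genes. RNA of a whole larva cannot tell fewer cells of a type from less RNA per cell, which applies to each value that follows.

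**Figure D1:**
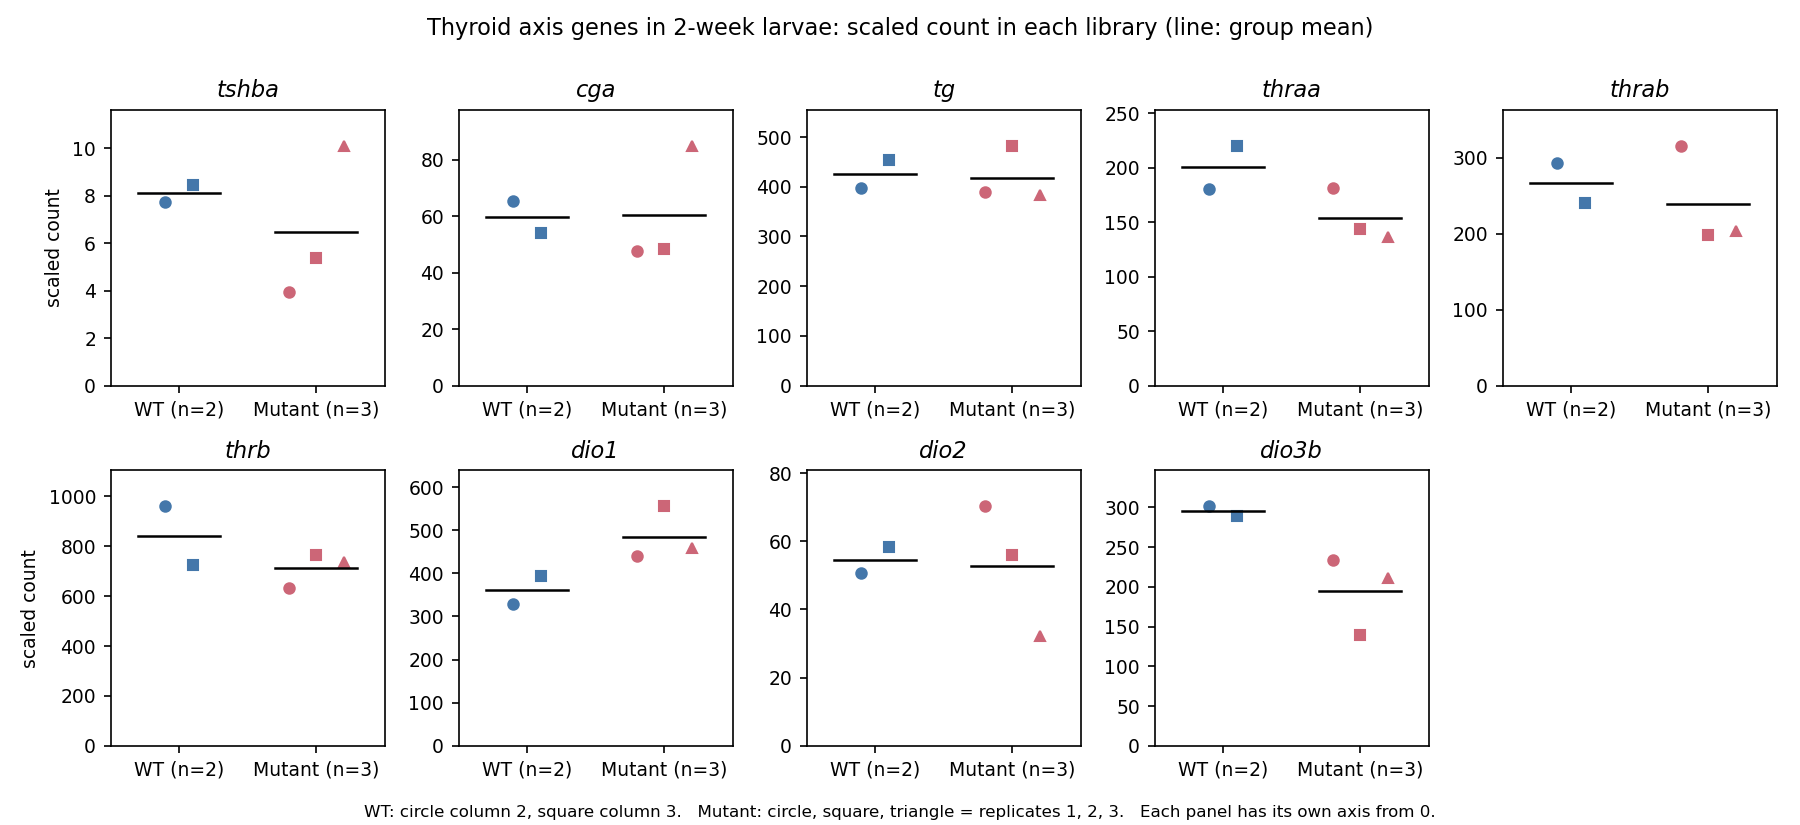
Scaled counts (vertical axis, from 0) of the 9 thyroid axis genes in each library, by label (horizontal axis), with a line at the group mean; each panel has its own scale. The values of dio1 and dio3b separate by label, and those of the other genes overlap.

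The subunits of thyroid stimulating hormone were examined first. For tshba (ENSDARG00000033726), the beta subunit, scaled counts were 7.75 and 8.47 under the WT label and 3.96, 5.38 and 10.1 under the Mutant label. These correspond to between 4 and 10 reads, the gene fell under the minimum of the test, and the highest and the lowest value were both from libraries labelled Mutant. The log2 difference of -0.37 (-0.69 to -0.11 with a library left out) was thus not tested with the minimum in place. Without a minimum, limma gave it an adjusted p of 0.675. A change of tshba was not detectable at this depth. Transcripts of cga (ENSDARG00000040479), the alpha subunit, had scaled counts of 65.4 and 54.0 under the WT label and 47.5, 48.4 and 84.9 under the Mutant label. Mutant replicate 3 was the highest of all 5 libraries and the other pair labelled Mutant the lowest, so the groups overlapped. Means were 59.7 ± 8.09 (SD, n = 2) and 60.3 ± 21.3 (SD, n = 3), and the log2 difference was -0.03 (95% interval -0.65 to 0.58, limma adjusted p = 0.953). The same library was also the highest for tshba. The ratio of tshba to cga in a library ranged from 0.118 to 0.157 with the label WT and from 0.0833 to 0.119 with the label Mutant, and overlapped.

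Other hormone genes of the pituitary were low or variable in these pools. Of a list of 8 marker genes of the other pituitary cell types, 7 were matched, none was at 0 reads in every library, and 3 passed the minimum, of which limma called 0 (0 also at an unadjusted p under 0.05). Their summed scaled counts were 638 to 957 under the WT label and 476 to 788 under the Mutant label. Growth hormone (gh1) made up most of this sum and had a log2 difference of -0.42 (SE 0.21, limma adjusted p = 0.239). Per 100 scaled counts of these markers, cga had 6.83 and 8.46 under the WT label and 9.98, 8.69 and 10.8 under the Mutant label, which did not overlap, and this ratio was not tested.

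The gland itself was read from thyroglobulin. Scaled counts of its gene tg (ENSDARG00000020084) were 398 and 453 under the WT label and 389, 482 and 383 under the Mutant label. The groups overlapped and tg was the steadiest of the axis genes, its highest library being 1.26 times its lowest. Means were 425 ± 39.1 (SD, n = 2) and 418 ± 55.7 (SD, n = 3), a log2 difference of -0.03 (SE 0.14, limma adjusted p = 0.910). The 95% interval of -0.34 to 0.28 excludes a change of 2-fold in either direction.

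For all 3 genes of thyroid hormone receptors the mean was lower under the Mutant label, and none was called. Zebrafish carry a pair of genes for receptor alpha, thraa and thrab, and a single gene for receptor beta, thrb, which in this species is needed for red-sensitive cones. Scaled counts of thraa (ENSDARG00000000151) were 181 and 220 under the WT label and 181, 144 and 136 under the Mutant label. Mutant replicate 1 lay just above the lower of the libraries labelled WT (181.1 against 180.8), and the other libraries labelled Mutant lay below both. The log2 difference of thraa was -0.38 (95% interval -0.77 to 0.0033, limma unadjusted p = 0.0517, adjusted p = 0.191), and -0.24 without the WT library of column 3. For thrab (ENSDARG00000052654) scaled counts were 294 and 240 under the WT label and 316, 198 and 204 under the Mutant label. Its highest and lowest values both carried the label Mutant, and the log2 difference was -0.18 (SE 0.21, limma adjusted p = 0.598). For thrb (ENSDARG00000021163) scaled counts were 960 and 723 under the WT label and 633, 764 and 737 under the Mutant label. The WT library of column 2 was above all others and that of column 3 was below a pair labelled Mutant, with a log2 difference of -0.23 (SE 0.14, limma adjusted p = 0.326). Without the WT library of column 2 the difference of thrb was -0.03, and that of thrab was -0.04. Reads of related receptor genes can be shared where their sequences are alike, and how the counting treated such reads is not stated.

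The proportions among receptors overlapped between the labels. The ratio of thraa to thrab was 0.616 and 0.916 under the WT label and 0.574, 0.728 and 0.668 under the Mutant label. That of thraa to thrb was 0.188 and 0.305 with the label WT and 0.286, 0.189 and 0.185 with the label Mutant. A ratio of 2 genes within a library does not depend on the size factor. For both, the difference between labels was smaller than the spread between libraries.

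Photoreceptors express thrb, and their markers were examined beside it. Of 9 markers of rods and cones all had negative differences, limma called 2 lower (2.68% of all genes were called lower), none was at 0, and their summed scaled counts were 91810 to 93877 under the WT label and 60521 to 79126 under the Mutant label. The called genes were crx, a transcription factor of photoreceptors (log2 difference -0.81, SE 0.13, limma adjusted p = 0.0158), and gnat2, the transducin alpha subunit of cones (-0.74, SE 0.13, limma adjusted p = 0.0209). Both calls were lost without the WT library of column 2 (-0.64 for crx and -0.76 for gnat2), where limma called 0.266% of all genes, and without Mutant replicate 2 (-0.85 and -0.73), where it called 0.350%. The highest counts in this sum were those of the opsin genes opn1sw1, rho and opn1mw1 (means 29745, 22154 and 18255 under the WT label). Red opsin genes were not among the markers, so the sum does not stand for red-sensitive cones. Per 1000 scaled counts of these markers, thrb had 10.5 and 7.70 under the WT label and 10.5, 12.4 and 9.32 under the Mutant label, which overlapped. The part of photoreceptors in the thrb values was not tested.

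Among the deiodinases, dio1 and dio3b separated by label and dio2 did not. Type 1 deiodinase can remove iodine from either ring of the hormone and is abundant in vertebrate liver, type 2 forms triiodothyronine within cells, and type 3 inactivates both hormones. Scaled counts of dio3b (ENSDARG00000095767), a type 3 gene, were 301 and 289 under the WT label and 234, 140 and 211 under the Mutant label. All 3 libraries labelled Mutant lay below both labelled WT, and Mutant replicate 2 was the lowest. Means were 295 ± 8.71 (SD, n = 2) and 195 ± 48.9 (SD, n = 3), a ratio of means of 0.660 and a log2 difference of -0.63 (SE 0.20). The 95% interval was -1.08 to -0.17, with an unadjusted p of 0.0117 and an adjusted p of 0.0915 in limma, so dio3b was not called. It was called under voom with limma (log2 difference -0.71, adjusted p = 0.0493), a setting in which 8.52% of all genes were called. That setting used precision weights, and library totals of reads in place of the size factors. With columns rescaled to equal totals and no weights, the difference of dio3b was also -0.71 (limma adjusted p = 0.0571). Over all 12 alternatives the adjusted p of dio3b ranged from 0.0493 to 0.386. Without Mutant replicate 2 the log2 difference was -0.41.

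In the opposite direction, scaled counts of dio1 (ENSDARG00000042112) were 328 and 393 under the WT label and 439, 555 and 459 under the Mutant label. No value under the Mutant label was as low as either under the WT label. Means were 360 ± 45.8 (SD, n = 2) and 484 ± 62.2 (SD, n = 3), a ratio of means of 1.34 and a log2 difference of 0.42 (SE 0.14, 95% interval 0.11 to 0.74). The unadjusted p was 0.0139 and the adjusted p 0.0992 in limma, so dio1 was not called, and over the alternatives its adjusted p ranged from 0.0594 to 0.487. For dio2 (ENSDARG00000094857) scaled counts were 50.8 and 58.2 under the WT label and 70.3, 56.0 and 32.3 under the Mutant label. Both the highest and the lowest library were labelled Mutant, and the log2 difference was -0.11 (95% interval -0.80 to 0.58, limma adjusted p = 0.847). With this spread between libraries, and between 32 and 71 reads in each, a change of dio2 within this interval was not detectable.

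**Figure D2:**
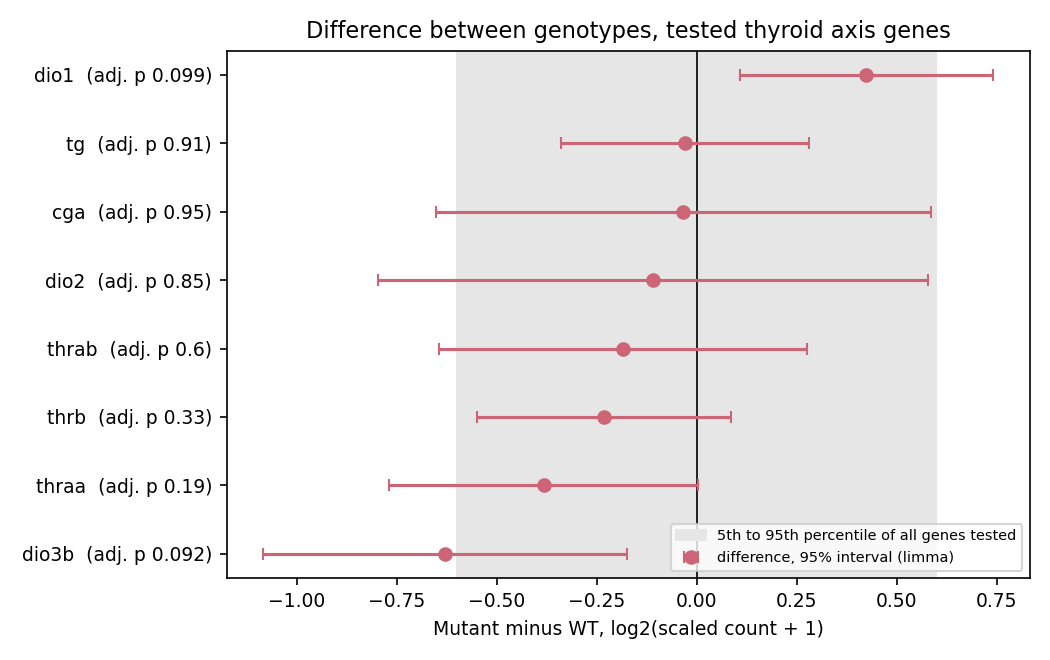
Mutant minus WT difference on the log2(scaled count + 1) scale (horizontal axis) with its 95% interval from limma, for the 8 tested thyroid axis genes (vertical axis, with adjusted p); the grey band spans the 5th to the 95th percentile of all genes tested. The intervals of dio1 (0.11 to 0.74) and dio3b (-1.08 to -0.17) lie to either side of zero, and the others include it.

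The RNA of both genes was expressed as the ratio of dio1 to dio3b in each library, chosen after the values were seen. It was 1.09 and 1.36 under the WT label and 1.88, 3.97 and 2.17 under the Mutant label. The groups did not overlap, which follows from the separation of dio1 and dio3b in opposite directions, so the ratio adds no separate evidence. Mutant replicate 2, lowest for dio3b and highest for dio1, stood farthest out. On the log2 scale the ratios differed by 1.06, and by 0.73 without Mutant replicate 2. An exact permutation test over libraries (two-sided) gave p = 0.2 and an adjusted p of 0.6 over the 5 ratios of member genes computed, and groups of this size cannot give a p below 0.1. The ratio of dio2 to dio3b was 0.169 and 0.201 with the label WT and 0.301, 0.400 and 0.153 with the label Mutant, and overlapped.

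Most liver transcripts examined were higher in the same libraries as dio1, while serpina1 (log2 difference 0.10) and ambp (0.23) overlapped between the labels. Of 6 hepatocyte markers all had positive differences, and limma called 3 higher (3.32% of all genes were called higher). These were tfa, which encodes transferrin (log2 difference 1.07, SE 0.20, limma adjusted p = 0.0239), cp, which encodes ceruloplasmin (0.63, SE 0.12, adjusted p = 0.0269), and apoa2, an apolipoprotein gene (0.48, SE 0.12, adjusted p = 0.0499). The call of apoa2 was lost with a pseudocount of 8, without a minimum, with columns rescaled to equal totals, with quantile normalization and with voom. All 3 calls were lost without the WT library of column 2 (0.70 for tfa, 0.44 for cp and 0.34 for apoa2) and without Mutant replicate 2 (0.96, 0.67 and 0.43). Those of cp (0.58) and apoa2 (0.48) were also lost without Mutant replicate 1. Summed scaled counts of the markers were 98063 and 135608 under the WT label and 172555 to 207579 under the Mutant label, and no marker was at 0. Per 1000 scaled counts of these markers, dio1 had 3.34 and 2.90 under the WT label and 2.39, 2.68 and 2.66 under the Mutant label, without overlap. This rested on tfa, the marker with the largest difference. With tfa left out of the sum, which was done after the values were seen, apoa2 made up most of it. On that sum dio1 had 4.88 and 4.68 under the WT label and 4.29, 5.08 and 4.64 under the Mutant label, and the groups overlapped. The log2 difference of this ratio was -0.28 with tfa and -0.04 without it. The part of liver RNA in the dio1 values was not tested.

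Neuron markers were examined beside dio3b. Of a list of 10 neuron markers compiled after the values were seen, 9 were matched, limma called 2 lower (snap25b and syt1a, both of synaptic vesicle release), where 2.68% of all genes were called lower, and 8 had negative differences, where 50.2% of all genes were negative. Their median was -0.32. The log2 differences were -0.54 for snap25b (limma adjusted p = 0.0227) and -0.57 for syt1a (adjusted p = 0.0345). Both calls were lost without the WT library of column 2 (-0.45 and -0.37), without Mutant replicate 1 (-0.54 for each) and without Mutant replicate 2 (-0.51 and -0.54). Their summed scaled counts were 33519 and 39196 under the WT label and 28420 to 30845 under the Mutant label. Per 1000 scaled counts of these markers, dio3b had 7.69 and 8.62 under the WT label and 8.20, 4.92 and 6.84 under the Mutant label. On this scale the groups overlapped, and the mean was still lower under the Mutant label (6.65, against 8.15 under the WT label). This ratio was not tested, and the part of neuronal RNA in the dio3b values was not tested either.

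**Figure D3:**
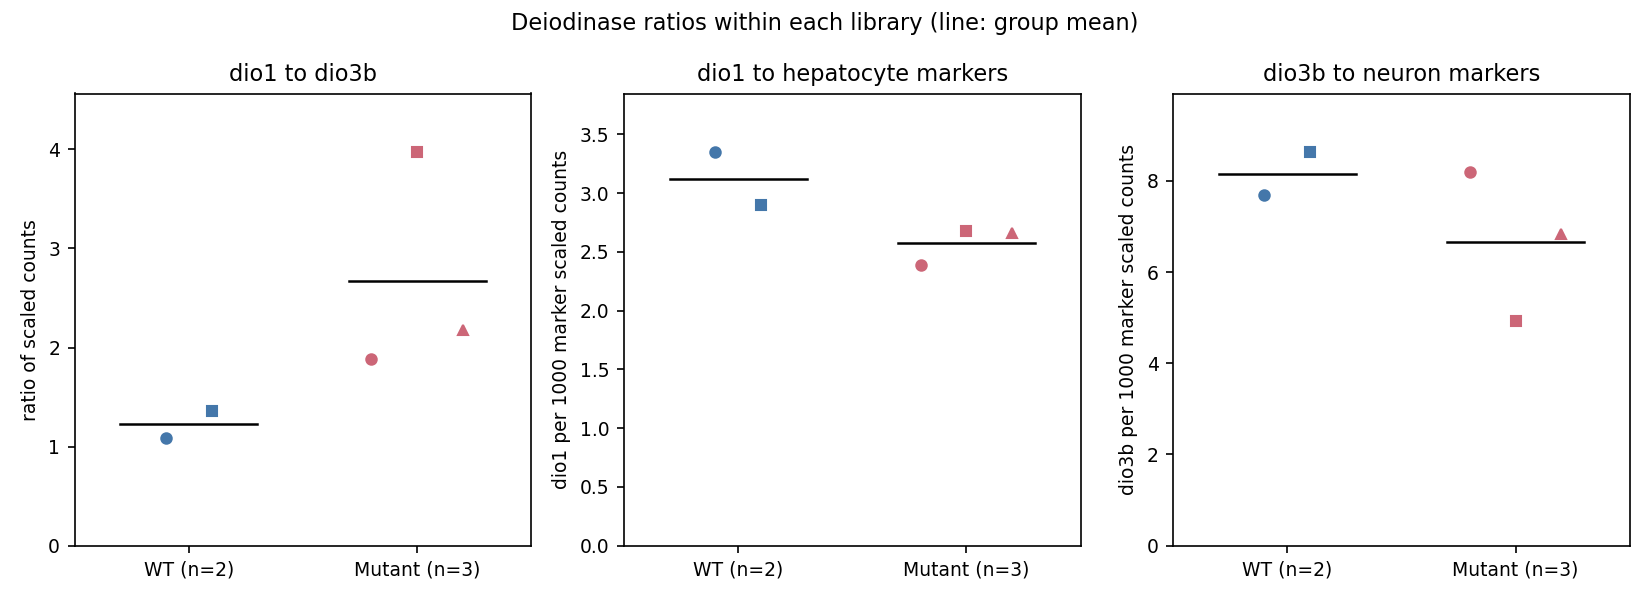
Ratio of dio1 to dio3b (left), dio1 per 1000 scaled counts of hepatocyte markers (middle) and dio3b per 1000 scaled counts of neuron markers (right) in each library by label, with a line at the group mean; vertical axes start at 0. The ratio of dio1 to dio3b is 1.09 and 1.36 with the label WT and 1.88 to 3.97 with the label Mutant, dio1 relative to hepatocyte markers, tfa included, is 2.90 and 3.34 with the label WT and 2.39 to 2.68 with the label Mutant, and dio3b relative to neuron markers overlaps.

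The profile of dio3b over the 5 libraries was set beside those of tested genes outside the axis, pathway and marker lists. It lay nearest to those of cux2b (distance 0.048 between log2 values centred on their mean), dok6 (0.061) and lrrc4bb (0.072). With so few libraries such likeness is common, and 85 genes outside the lists lay within 0.25. The log2 differences of cux2b, dok6 and lrrc4bb were -0.62, -0.58 and -0.61, and limma called none of them (adjusted p = 0.152, 0.217 and 0.0848).

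Further genes of the pathway were examined in 6 lists by role, which held 59 symbols. All 51 genes found in the table were tested, and limma called 0 of them, against 6.00% of all genes, and 11 had an unadjusted p under 0.05 (21.6%, against 26.7% of all genes). Under voom 4 were called (7.84%, against 8.52% of all genes), all lower (crhr1, slco1c1, opn1lw2 and klf9). Without the WT library of column 3 limma called 5 (9.80%, against 11.9% of all genes), of which crhr1 (-0.64), klf9 (-0.81) and slc7a8a (-0.44) were lower and sephs1 (0.60) and sps2 (0.45) higher. Without that of column 2, slc7a8a was at -0.064, sephs1 at -0.023 and sps2 at 0.027. Limma called ttr (0.89) without Mutant replicate 1, where 2.30% of all genes were called, and opn1lw2 (-0.63) and me1 (1.03) without Mutant replicate 3, where 5.64% were called. Of these, slco1c1, klf9, slc7a8a, sephs1, sps2 and me1 were named after their values were seen. With all libraries me1 had a log2 difference of 0.75 and slc7a8a one of -0.25. Differences were negative for 36 of the 51, with a median of -0.19. Of all genes 50.2% were negative, and 60.9% with columns rescaled to equal totals and 61.0% with voom. Between the labels, 20 of the 51 did not overlap (39.2%, against 44.9% of all genes).

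The first list held genes that drive the axis from the hypothalamus and pituitary. Of 9 tested, 8 had negative differences, against 50.2% of all genes, and the median was -0.36. Limma called none. An unadjusted p under 0.05 was reached by 3, against 26.7% of all genes, and 1 was called under voom, against 8.52% of all genes. Among the 9 neuron markers tested, 8 were also negative, with a median of -0.32. The part of neuronal RNA in the values of the drive list was not tested. The smallest adjusted p of the drive list was that of crhr1, a receptor of corticotropin releasing hormone, a peptide that can stimulate thyrotropes in fish. Scaled counts were 343 and 284 under the WT label and 242, 215 and 203 under the Mutant label. The groups did not overlap, and the log2 difference was -0.50 (SE 0.15, limma adjusted p = 0.0693). The groups also did not overlap for trhra (log2 difference -0.96, limma adjusted p = 0.0923) and trhrb (-0.81, adjusted p = 0.0906), receptors of thyrotropin releasing hormone, which were named after their values were seen. For trhra, scaled counts were 47.3 and 38.1 under the WT label and 23.7, 15.1 and 27.3 under the Mutant label. The receptor of thyroid stimulating hormone itself, tshr, was low, with scaled counts between 11.1 and 18.0, and overlapped. Another receptor gene of corticotropin releasing hormone, CRHR2, was low as well, with scaled counts between 4.04 and 19.8. It overlapped, with a log2 difference of -0.78 (SE 0.53, limma adjusted p = 0.368).

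Genes of follicle differentiation and hormone synthesis were mixed, with 7 negative and 3 positive differences, a median of -0.25 and no call by limma or voom. In limma 1 of them had an unadjusted p under 0.05, against 26.7% of all genes. Which tissues of the larva gave these transcripts was not tested, so their median does not stand for the gland. The smallest adjusted p was that of IYD, an enzyme that recovers iodide from iodotyrosines. Scaled counts were 179 and 230 under the WT label and 272, 330 and 229 under the Mutant label, which overlapped (log2 difference 0.43, SE 0.18, limma adjusted p = 0.161), and the difference was 0.25 without the WT library of column 2. The iodide transporter gene slc5a5, a defining marker of follicle cells, had scaled counts from 14.8 to 24.7 over all libraries and overlapped.

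Of 6 genes of hormone transport and binding, limma called none, and the median was -0.23. An unadjusted p under 0.05 was reached by 2, against 26.7% of all genes, and 1 was called under voom, against 8.52% of all genes. The gene ttr, which encodes the plasma carrier transthyretin, had scaled counts of 454 and 427 under the WT label and 524, 778 and 852 under the Mutant label. The groups did not overlap, with a log2 difference of 0.68 (SE 0.19, limma adjusted p = 0.0601). Transthyretin is made in liver, and the difference of ttr had the sign of the hepatocyte markers. Under the Mutant label, ttr was highest in replicate 3, where the summed hepatocyte markers were lowest (172555, against 183873 and 207579). Under the WT label, ttr was lower in column 3, where that sum was higher (135608, against 98063 in column 2). The part of liver RNA in the ttr values was not tested. The gene slco1c1, named after its values were seen, encodes a thyroxine transporter of brain vessels in mammals. Its direction was opposite to that of ttr, with a log2 difference of -0.62 (limma adjusted p = 0.0638). Scaled counts of slco1c1 were 314 and 278 under the WT label and 215, 154 and 214 under the Mutant label, without overlap.

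All 12 partners and cofactors of the receptors, which are retinoid X receptors, corepressors and coactivators, had negative differences, where 50.2% of all genes were negative. The differences were small, from -0.41 to -0.08 with a median of -0.15, and limma called none. An unadjusted p under 0.05 was reached by 1, against 26.7% of all genes, and 0 were called under voom, against 8.52% of all genes. The smallest adjusted p was that of the coactivator gene ncoa1 (log2 difference -0.41, SE 0.16, limma adjusted p = 0.138), with scaled counts of 1040 and 887 under the WT label and 871, 590 and 734 under the Mutant label. Without Mutant replicate 2 the difference of ncoa1 was -0.26. Without the WT library of column 2, and without Mutant replicate 2, 11 of the 12 were negative.

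The 5 genes found of other deiodination and selenoprotein synthesis genes, the latter needed because deiodinases contain selenocysteine, had differences from -0.29 to 0.29. None was called by limma or voom, and 0 had an unadjusted p under 0.05, against 26.7% of all genes. The smallest adjusted p was that of secisbp2, a selenocysteine insertion factor (log2 difference -0.29, SE 0.15, limma adjusted p = 0.237), at -0.089 without the WT library of column 2 and -0.49 without that of column 3. The genes sephs1 and sps2, both named for selenophosphate synthesis, had log2 differences of 0.29 and 0.24.

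Genes known to respond to thyroid hormone in vertebrates had differences of both signs. No direction of response was assigned to them, so the signs do not show whether a response was present. Of 9 tested, 6 had positive and 3 negative differences with a median of 0.13, and limma called none. An unadjusted p under 0.05 was reached by 4, against 26.7% of all genes, and 2 were called under voom, against 8.52% of all genes. The smallest adjusted p was that of opn1lw2, a red cone opsin. Scaled counts were 20628 and 20351 under the WT label and 12979, 13464 and 17868 under the Mutant label, without overlap (log2 difference -0.49, SE 0.14, limma adjusted p = 0.0645), and it was called with quantile normalization (-0.52, limma adjusted p = 0.0486), a setting that called 5.44% of all genes. The other red opsin gene, opn1lw1, overlapped (0.18, SE 0.23). All 9 photoreceptor markers also had negative differences, with a median of -0.41. The part of photoreceptor RNA in the opn1lw2 values was not tested. The transcription factor gene klf9, a direct target of the receptors in amphibians and mammals that also responds to glucocorticoids, was named after its values were seen. Scaled counts were 6956 and 4692 under the WT label and 4213, 3528 and 4226 under the Mutant label. All libraries labelled Mutant were lower, and the log2 difference was -0.52 (SE 0.16, limma adjusted p = 0.0753). In limma it was called with columns rescaled to equal totals (-0.61, adjusted p = 0.0479), which called 7.80% of all genes, and without the WT library of column 3 (-0.81, adjusted p = 0.0106), and the difference was -0.24 without that of column 2. The myelin gene mbpa overlapped, with a log2 difference of 0.13 (SE 0.11, limma adjusted p = 0.480).

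**Figure D4:**
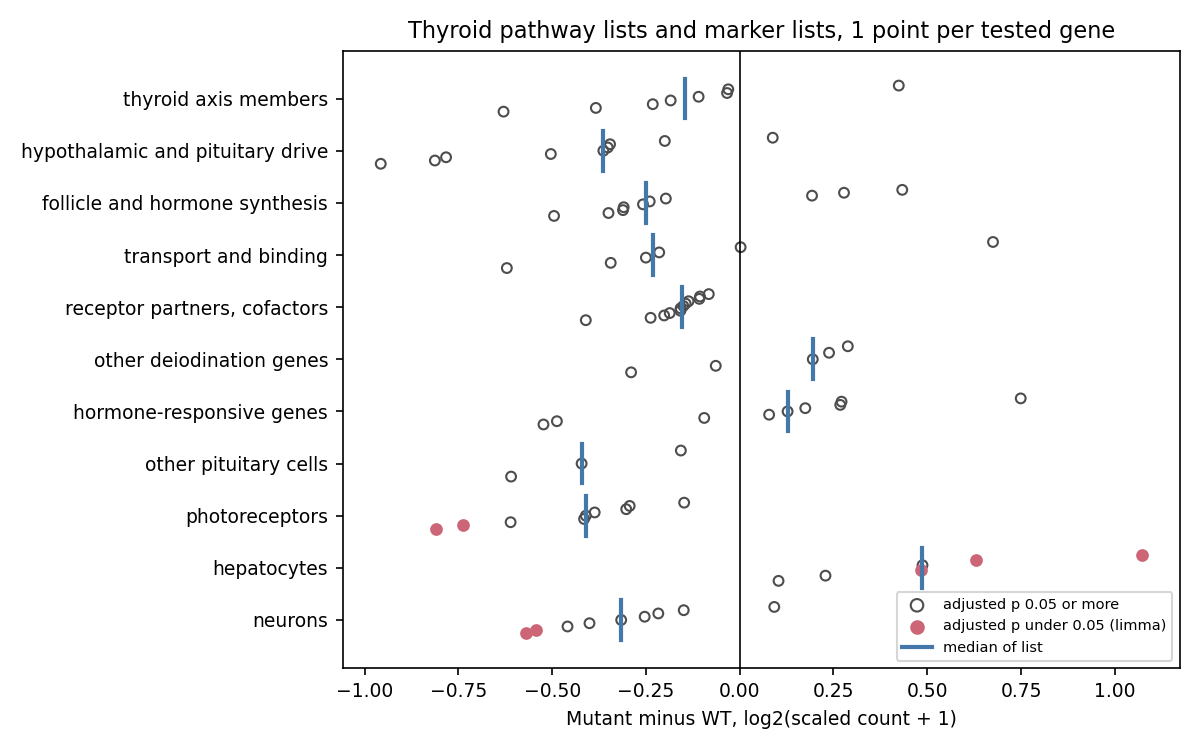
Mutant minus WT differences on the log2(scaled count + 1) scale (horizontal axis) for the tested genes of each list (vertical axis), 1 point per gene, filled where limma gave an adjusted p under 0.05, with the list median as a bar. No point of the thyroid axis or its 6 pathway lists is filled, and filled points are in the photoreceptor, hepatocyte and neuron markers.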

How the data were processed

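Per the labels, libraries were stranded and sequenced from both ends. The authors used STAR on danRer7, HTSeq (0.5.3) for reads per gene and DESeq for scaling. What they deposited is a signal, the scaled count of each gene plus 1. After 1 was subtracted, every value was a whole multiple (within 0.01) of the value of 1 read, which gave reads and depth. Columns labelled WT carry the numbers 2 and 3 and could not be tied to single samples.

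The log2 of the scaled count and a pseudocount of 1 entered limma 3.58.1 under R 4.3.3 (trended prior, two-sided, a single fit of both groups, no covariates). The minimum for a test was a mean of 10, which 20307 of 21854 genes reached, and p-values were adjusted over these. No transcript lengths were used here, so levels are not compared between genes. The step was tested on simulated data with planted changes larger than any difference of the thyroid axis genes. That test does not show whether changes of their size could be called.

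The thyroid axis genes and lists were chosen with earlier results of these data known, and the neuron list and ratios after their values were seen. Named genes are those of the axis list, the gene of smallest adjusted p in each pathway list, called markers and zbtb24. Also named are the 3 genes outside all lists with profiles nearest to that of the member of smallest p. Every other gene was named after its values were seen. Alternatives were pseudocounts of 0.5 and 8, no minimum, a minimum of 50, equal totals, quantile normalization, voom, and leaving out each library. Voom used the recovered reads and their library totals, without the size factors. The count models edgeR and DESeq2 were kept for counts as deposited and not run. A gene of the list is not reported here.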

Additional observations from a re-analysis of the deposited data

How the results depend on the processing

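Of the thyroid axis genes, 0 were called higher under all 12 alternatives and 1 was called lower, dio3b, under voom alone (-0.71). The signs of dio1, dio3b, thraa, thrab, thrb and tshba held in every alternative run. With a library left out, signs turned for cga (-0.30 to 0.11), tg (-0.14 to 0.063) and dio2 (-0.35 to 0.20). That was so for cga without the WT library of column 2 (0.10), Mutant replicate 1 (0.11) or Mutant replicate 2 (0.094). For tg it was so without the WT library of column 3 (0.063), Mutant replicate 1 (0.017) or Mutant replicate 3 (0.029), and for dio2 without Mutant replicate 3 (0.20). The sign of sephs1 turned without the WT library of column 2, with a range over left-out libraries of -0.023 to 0.60. The median of the tested members was -0.23 with equal totals and with voom, and -0.25 to -0.082 with a library left out.

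With equal totals, the median of all genes was -0.085, and the pathway lists of drive, transport and targets had 1, 1 and 2 genes called lower. They had 1, 1 and 2 with voom, and the targets 1 with quantile normalization. With a library left out, the genes called lower were 0 to 1 in each of these lists, and those called higher 0 to 1 in transport, 0 to 2 in deiodination and 0 to 1 in targets. Over all genes, 674 were called higher and 544 lower, with 1103 lower at equal totals and 1246 with voom. Rises made up 55.3% of calls, and 30.4% and 28.0% under those settings. With a library left out, from 40 to 1315 genes were higher and from 14 to 1107 lower, fewest without the WT library of column 2 and most without that of column 3. A lone library labelled WT is then assumed to vary like those labelled Mutant. The cause was not tested.

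No paired analysis was run, because the labels give no pairing of libraries between the groups. It is also unknown which sample title belongs to which column of the WT group. Tests with edgeR and DESeq2 were not run. They were kept for counts as deposited, and the reads used for voom were recovered from scaled values. For tshba the low number of reads limits precision. For dio2 and cga the spread between libraries of a label limits it as well (pooled SD 0.47 and 0.40 on the log2 scale).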
